A study of Caenorhabditis elegans with 8 samples.

Results

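The 7 glutathione peroxidase genes gpx-1, gpx-2, gpx-3, gpx-5, gpx-6, gpx-7 and gpx-8 were followed through 8 RNA-seq libraries of whole Caenorhabditis elegans. They were chosen by name, through the pairing of WormBase gene IDs with symbols, and are 7 of the 47087 loci in the table. All animals were wild type (N2), grown for 40 h at 20 °C from synchronized first-stage larvae and described as young adults. For the 4 NL libraries the animals stayed in constant darkness, and for the 4 DL libraries they received light at 8000 lux for 12 h, then 12 h without light, in cycles. The libraries were labelled as 4 batches with an NL and a DL library in each. Neither the number of light cycles nor whether libraries were separate cultures is given in the labels, so the tests reflect library-to-library spread, which could be technical.

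Glutathione peroxidases reduce hydrogen peroxide and organic hydroperoxides to water and alcohols, drawing the electrons from glutathione or, for some members, from thioredoxin. Several mammalian members are selenoproteins, whereas the only known selenoprotein of C. elegans is a thioredoxin reductase, TRXR-1. Among the worm genes, gpx-1, gpx-2, gpx-6 and gpx-7 are counted as relatives of mammalian GPX4, the enzyme that acts on phospholipid hydroperoxides in membranes. By contrast, gpx-3 and gpx-5 resemble the mammalian group that includes the secreted plasma enzyme GPX3. In the annotation of WBcel235, gpx-5 lies on chromosome X at 9584668 to 9586344 and gpx-3 follows it on the same strand at 9587942 to 9588879, with 1597 bases and no other annotated gene between them. Elsewhere, gpx-7 lies on X at 7798949 to 7799780, gpx-6 on IV at 8222202 to 8223461, gpx-2 on II at 14866766 to 14869671, gpx-1 on I at 9780349 to 9781413 and gpx-8 on I at 10782115 to 10782890.

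The libraries held 18628030 to 20394371 reads in genes, recovered from the steps between FPKM values (fragments per kilobase of gene, scaled to library size). They were not alike in transcripts of stage. The summed FPKM of 25 sperm genes was 14.4 to 86.1 in NL 1, NL 2 and NL 4, 1134.5 in NL 3 and 860.35 to 4048.8 in DL, and none of these genes was at 0 in all libraries. The sum of 7 yolk and adult cuticle genes was 192 in NL 3, 393 in DL 2 and 0.509 to 10.5 in the other 6. The log2 changes of the tested members and of sod-3 are therefore also given without NL 3 and DL 2. In whole animals, fewer cells of a type and less RNA per cell cannot be told apart.

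Transcripts of the related pair gpx-5 and gpx-3 were less abundant in every DL library than in any NL library, while no member passed the test over all genes. Those of gpx-1 were higher in DL within each batch, as were 13.3% of all tested genes, but its groups overlapped. The log2 changes of gpx-2, gpx-7 and gpx-6 were 0.19, 0.25 and -0.62. Of the 7 genes, 6 averaged 1 FPKM or more and were tested, and limma on log2(FPKM + 1) called 0 of them at an adjusted p under 0.05, against 0.703% of the 14358 genes tested. At an unadjusted p under 0.05 there were 3 of the 6 (gpx-3, gpx-5 and gpx-6), against 20.6% of all tested genes, and limma's voom on the recovered reads also called 0 (0.512% of all genes in that fit). With the batch as a block limma likewise called 0, against 0.174% of all genes. The log2 changes of the 6 were 3 positive and 3 negative, with a median of -0.22 against 0.03 over all tested genes.

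By level, in FPKM over the 8 libraries, gpx-2 came first with a mean of 97.3, followed by gpx-5 (84.9), gpx-1 (72.4), gpx-7 (27.5), gpx-3 (16.3), gpx-6 (6.91) and gpx-8 (0.83). The ranges of gpx-2, gpx-5 and gpx-1 overlapped, as did those of gpx-7 with gpx-3 and of gpx-3 with gpx-6. No overlap was found between gpx-1 and gpx-7, or between gpx-6 and gpx-8, whose order held in 8 of 8 libraries. Among the tested genes, gpx-2 exceeded 91.4% and gpx-6 37.3%.

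**Figure D1:**
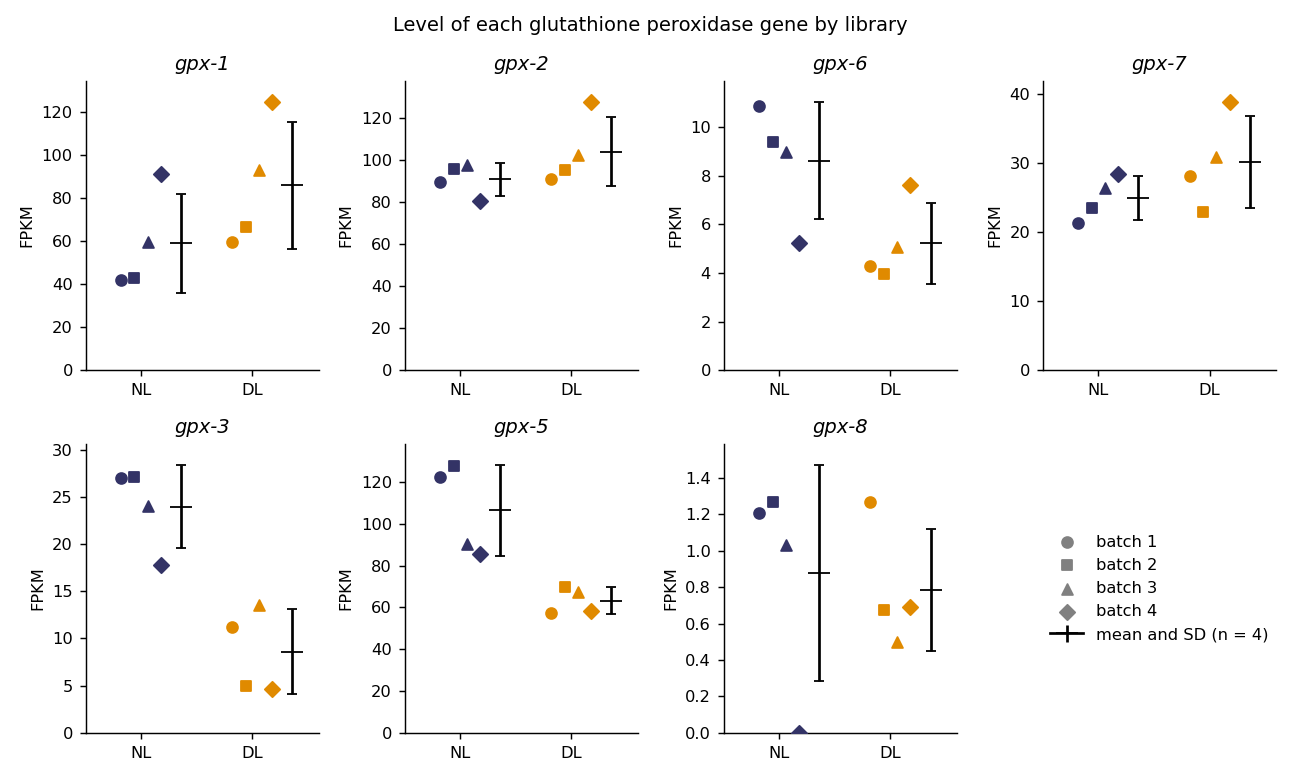
FPKM of each glutathione peroxidase gene in the 8 libraries, NL in dark blue and DL in orange, with 1 marker shape per labelled batch and the mean and SD of each group (n = 4) in black. The 4 DL libraries lie below the 4 NL libraries for gpx-3 and gpx-5, and the groups overlap for the other 5 genes.

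Of the GPX3-like genes, gpx-5 was the more abundant. Its level was 123, 128, 90.2 and 85.6 FPKM across NL 1 to 4 and 57.5, 70.0, 67.4 and 58.2 FPKM across DL 1 to 4. The groups did not overlap: the lowest NL library, NL 4, lay above the highest DL library, DL 2. The mean was 106 ± 21.6 FPKM in NL and 63.3 ± 6.37 FPKM in DL (SD, n = 4 each), 1.68-fold higher in NL, and the log2 change was -0.72 ± 0.17 (SE; limma adjusted p = 0.0882). These values rest on 1045 to 2293 reads per library.

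The neighbouring gene gpx-3 stood at 27.0, 27.1, 24.0 and 17.8 FPKM across NL 1 to 4 and at 11.2, 5.02, 13.6 and 4.62 FPKM across DL 1 to 4. Here too the groups did not overlap, and DL 2 and DL 4 were lower than DL 1 and DL 3 by a factor of more than 2. The mean was 24.0 ± 4.38 FPKM in NL and 8.61 ± 4.48 FPKM in DL (SD, n = 4 each), 2.78-fold higher in NL. Its log2 change of -1.48 ± 0.32 (SE; limma adjusted p = 0.0754) was the largest in size among the 6 tested members. It ranked 243rd and gpx-5 301st by p among the 14358 genes. The 2 genes without overlap compare with 9.24% of all tested genes without overlap in either direction and 4.8% that were lower in DL.

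The difference of log2(FPKM + 1) within a batch ran from -1.08 to -0.41 for gpx-5 and from -2.22 to -0.78 for gpx-3. Its sign in the 4 batches follows from the lack of overlap and adds nothing to it. For gpx-5 the difference was larger in size in batches 1 and 2 than in batches 3 and 4, and for gpx-3 it was largest in batch 2 and smallest in batch 3.

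Transcripts of stage and of tissues differed between libraries and followed the groups only in part. The NL and DL ranges of the summed FPKM overlapped for the sperm list and for each tissue list. Their part in the differences of gpx-5 and gpx-3 was not tested. Of the marker genes measured, 5 of 5 for muscle had negative log2 changes (median -0.51), as did 4 of 4 for the intestine (median -0.31) and 4 of 5 for neurons (median -0.30), while 3 of 5 for the hypodermis had positive ones (median 0.13), with 0 genes of these 4 lists called by limma. The muscle sum was highest in NL 1 and NL 2 (3149 and 3076 FPKM), as were gpx-5 and gpx-3, and was 1705 to 2397 in the other 6 libraries. The hypodermis sum was also highest in NL 1 and NL 2 (2764 and 2837 FPKM), and at most 2412 in the other 6. By contrast, the intestine sum was highest in DL 4 and the neuron sum in NL 4. In NL 3, the NL library with the highest sperm sum, gpx-5 stood at 90.2 and gpx-3 at 24.0 FPKM, both above all DL libraries. In NL 4, where the sperm sum was lowest (14.4), they stood at 85.6 and 17.8 FPKM. Without NL 3 and DL 2 the log2 change of gpx-5 was -0.85 (limma adjusted p = 0.0406) and that of gpx-3 was -1.29 (limma adjusted p = 0.0761), in a fit that called 9.34% of all genes. Leaving out NL 3 alone, limma called both (adjusted p = 0.0276 for gpx-5 and 0.0357 for gpx-3) and 10.8% of all genes. Leaving out any other single library, limma called neither, with the highest adjusted p without NL 1 (0.263 for gpx-5 and 0.233 for gpx-3). Without NL 2 the limma adjusted p was 0.255 for gpx-5 and 0.225 for gpx-3. In both of the fits without NL 3 the sperm sum of every NL library lay below that of every DL library. Stage and group therefore cannot be told apart there. In the fit of all 8 libraries, NL 3 was the only NL library with a sperm sum inside the DL range.

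Among the GPX4-like genes, gpx-1 varied most between the libraries of a group. Its level was 42.1, 42.7, 59.6 and 90.9 FPKM across NL 1 to 4 and 59.7, 66.5, 93.2 and 124 FPKM across DL 1 to 4. The groups overlapped, since NL 4 lay above DL 1 and DL 2. Means were 58.8 ± 22.9 FPKM in NL and 85.9 ± 29.4 FPKM in DL (SD, n = 4 each). The log2 change was 0.55 ± 0.30 (SE; limma adjusted p = 0.348). Within the batches, the DL library was higher in 4 of 4, by 0.49, 0.63, 0.64 and 0.45 on the log2(FPKM + 1) scale. Over all tested genes, 24.1% had the same sign in all 4 batches and 13.3% were higher in DL in all 4. With the batch as a block the log2 change had an SE of 0.13 and a limma adjusted p of 0.154. Leaving out 1 library at a time moved it between 0.35 (without DL 4) and 0.78, and without NL 3 and DL 2 it was 0.68 (limma adjusted p = 0.357). The last 90 bases of gpx-1 overlap drsh-1, a gene of the other strand for the microRNA-processing enzyme Drosha, and the library kit does not mark strand. The level of drsh-1 was 2.18 to 5.28 FPKM over the 8 libraries.

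The most abundant member, gpx-2, was also the steadiest of the 3 leading genes, spanning 0.66 over the 8 libraries on the log2(FPKM + 1) scale against 1.14 for gpx-5 and 1.54 for gpx-1. Its level was 89.4, 95.4, 97.6 and 80.4 FPKM across NL 1 to 4 and 90.9, 95.3, 102 and 127 FPKM across DL 1 to 4. In batches 1 to 3 its libraries differed by 0.06 or less in size on the log2(FPKM + 1) scale, and in batch 4 DL was higher by 0.66. The log2 change was 0.19 ± 0.14 (SE; limma adjusted p = 0.518), 0.08 without DL 4 and 0.26 without NL 3 and DL 2 (limma adjusted p = 0.497).

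For gpx-7 the level was 21.3, 23.4, 26.4 and 28.4 FPKM across NL 1 to 4 and 28.1, 22.8, 30.8 and 38.7 FPKM across DL 1 to 4. The groups overlapped, and DL was higher in 3 of 4 batches. Its log2 change was 0.25 ± 0.18 (SE; limma adjusted p = 0.476), 0.12 without DL 4 and 0.40 without NL 3 and DL 2 (limma adjusted p = 0.283).

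The least abundant GPX4-like gene, gpx-6, stood at 10.9, 9.37, 8.98 and 5.22 FPKM across NL 1 to 4 and at 4.28, 3.94, 5.05 and 7.62 FPKM across DL 1 to 4. Its libraries of batch 4 went against those of the other batches: NL 4 lay among the DL libraries and DL 4 was the highest of DL. Within batches the difference was -1.17, -1.07 and -0.72 in batches 1 to 3 and 0.47 in batch 4. The log2 change was -0.62 ± 0.25 (SE; limma adjusted p = 0.203), from 64 to 164 reads per library, and -0.49 without NL 3 and DL 2 (limma adjusted p = 0.414).

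**Figure D2:**
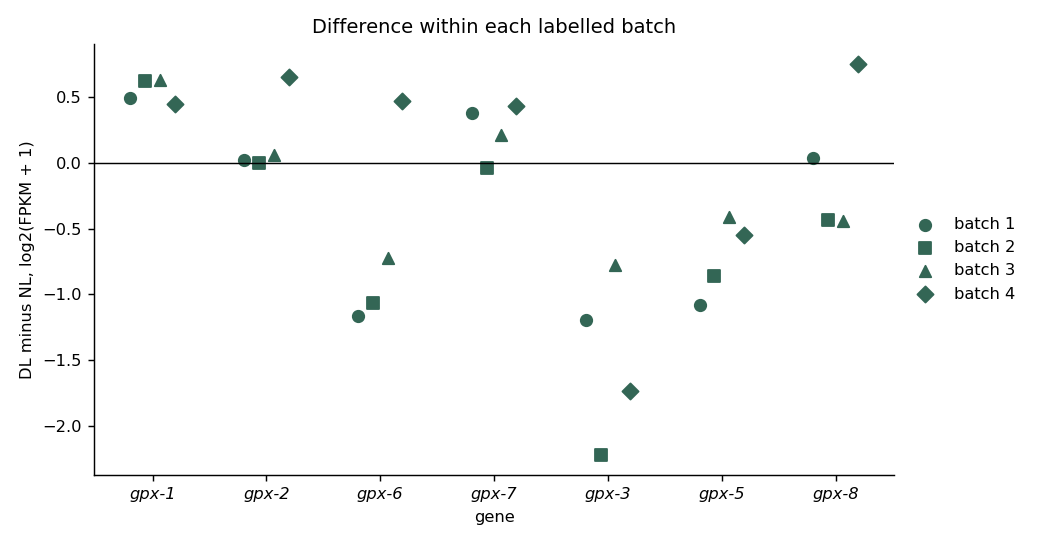
Difference of log2(FPKM + 1) between the DL and the NL library of each labelled batch, for each glutathione peroxidase gene, with 1 marker shape per batch. All 4 points lie above 0 for gpx-1 and below 0 for gpx-3 and gpx-5, as they must where the groups do not overlap; the other 4 genes have points on both sides.

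Across the alternatives tried, the direction of all 6 tested members was kept. The filters and the block cannot change it, and for gpx-3 and gpx-5 it follows from the lack of overlap where libraries are left out. Red crosses in the plot of alternatives come from fits that weight or leave out libraries: array weights called 5 of the 6 members and 36.1% of all genes, and the fits without NL 3 are those given above.

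**Figure D3:**
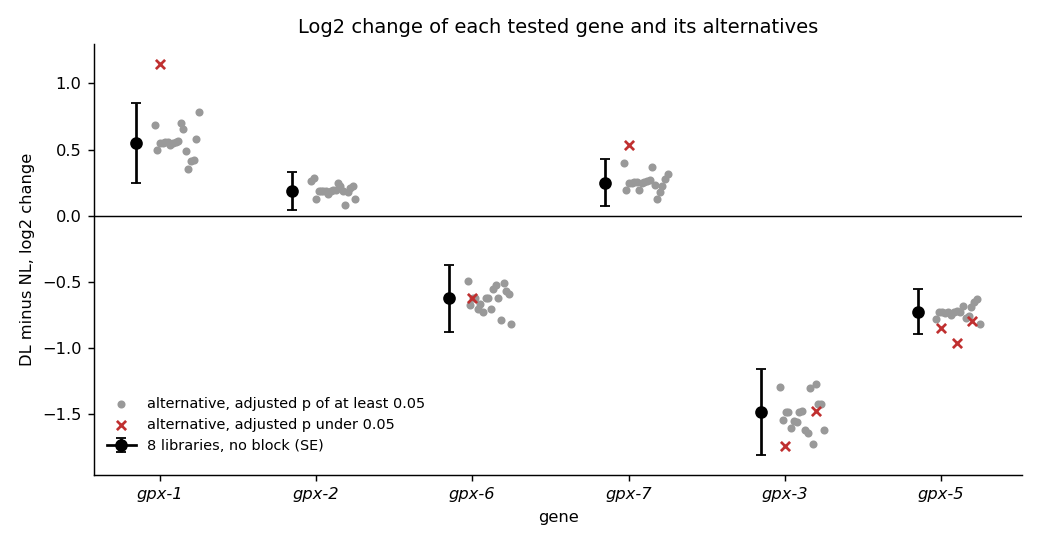
Log2 change (DL minus NL) of the 6 tested glutathione peroxidase genes: the fit of all 8 libraries without a block (black, with SE) and each alternative beside it, as grey points or, where the limma adjusted p was under 0.05, as red crosses. Every point keeps the sign of the black point, and red crosses stand beside each gene except gpx-2.

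The gene gpx-8 lay under the filter of 1 FPKM and was not part of the main test. It is protein coding in the annotation of Ensembl release 115 and listed as a pseudogene by RefSeq. It had 0 to 12 reads per library, at 1.21, 1.27, 1.03 and 0 FPKM across NL 1 to 4 and 1.27, 0.68, 0.50 and 0.69 FPKM across DL 1 to 4. The count of 0 in NL 4 allows up to 0.358 FPKM, the level of 3 reads, and its 95% Poisson interval of 0 to 0.440 FPKM covers counting error only. In a fit with no filter on low values its log2 change was -0.02 ± 0.28 (SE; limma adjusted p = 0.987).

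The 7 genes summed to 314 ± 8.86 FPKM in NL and 298 ± 49.7 FPKM in DL (SD, n = 4 each). The total of each NL library, 308 to 327 FPKM, lay inside the DL range of 253 to 361. Together gpx-3 and gpx-5 held 47.6%, 47.3%, 37.1% and 33.5% of this sum across NL 1 to 4 and 27.2%, 28.4%, 25.9% and 17.4% across DL 1 to 4. Within a library such shares do not depend on how that library was scaled. The largest share belonged to gpx-5 in NL 1 and NL 2, to gpx-2 in NL 3 and to gpx-1 in NL 4, and to gpx-2 in all 4 DL libraries.

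The ratio of gpx-5 to gpx-2 was 1.37, 1.34, 0.924 and 1.07 across NL 1 to 4 and 0.632, 0.735, 0.660 and 0.457 across DL 1 to 4. All 4 DL libraries thus lay below the 4 NL libraries, as they already did for gpx-5 alone. For gpx-5 over gpx-1 the ratio ran from 0.942 to 2.99 in NL and from 0.468 to 1.05 in DL, with NL 4 inside the DL range. These sums, shares and ratios were formed after the values were seen and were given no test.

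**Figure D4:**
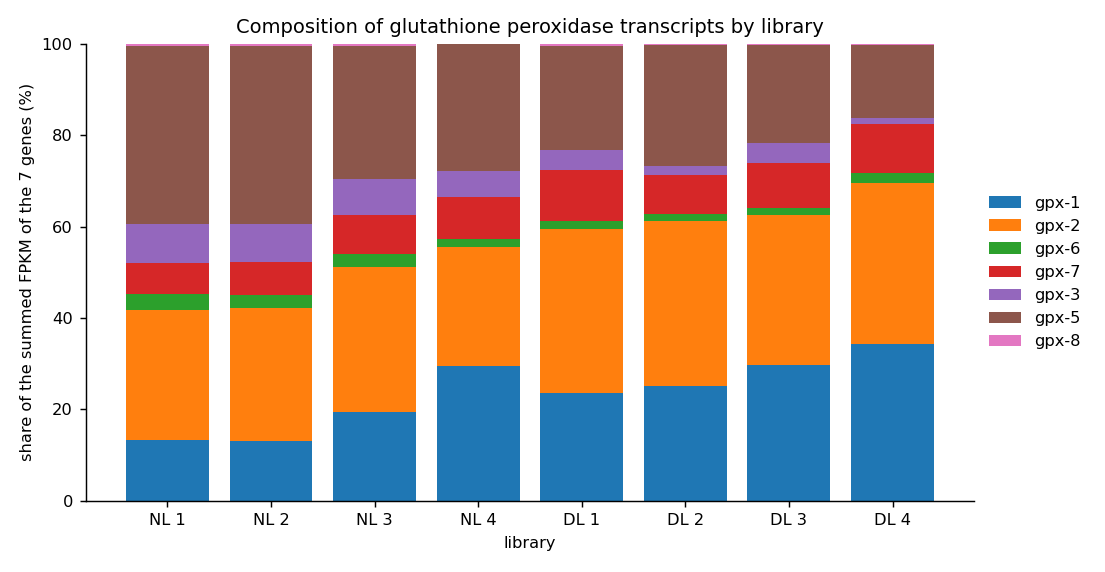
Share in percent of each gene in the summed FPKM of the 7 glutathione peroxidase genes, as 1 stacked bar per library. The combined share of gpx-3 and gpx-5 lies between 33.5% and 47.6% in NL and between 17.4% and 28.4% in DL.

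Other genes of glutathione and peroxide metabolism were set beside the family. The counts in these lists are read against all tested genes, of which 0.703% were called and 20.6% had an unadjusted p under 0.05. Of 11 genes for glutathione synthesis and recycling and for the supply of NADPH and cysteine, limma called 0 (2 at an unadjusted p under 0.05). Their median log2 change was 0.23, with 8 positive and 3 negative. The gene gcs-1, for the rate-limiting enzyme of glutathione synthesis, stood at 49.7, 49.8, 46.9 and 82.8 FPKM across NL 1 to 4 and at 78.5, 75.8, 97.1 and 122 FPKM across DL 1 to 4 (log2 change 0.71 ± 0.22, limma adjusted p = 0.121). In both gcs-1 and gpx-1 the highest NL library was NL 4 and the highest DL library DL 4. The gene gsr-1, for glutathione reductase, which regenerates the reduced form, had a log2 change of 0.35 ± 0.16 (limma adjusted p = 0.25). The most abundant of this list, the isocitrate dehydrogenase gene idh-1, had one of -0.07 ± 0.15 (limma adjusted p = 0.851).

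Transcripts of gst-4, a glutathione S-transferase used as a reporter of the stress-response factor SKN-1, stood at 53.1, 52.2, 72.9 and 460 FPKM across NL 1 to 4 and at 230, 343, 696 and 731 FPKM across DL 1 to 4. NL 4 thus lay inside the DL range, as it did for gpx-1, gpx-6 and gpx-7. The log2 change of gst-4 was 2.17 ± 0.70 (limma adjusted p = 0.124) and that of skn-1 itself -0.17 ± 0.14 (limma adjusted p = 0.515). Of the 7 genes of SKN-1 regulation and targets limma called 0 (2 at an unadjusted p under 0.05), with 3 log2 changes positive and 4 negative and a median of -0.11.

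Other enzymes that remove peroxides held no called gene either (0 of 10 tested, 1 at an unadjusted p under 0.05, median -0.02). Their most abundant gene, the peroxiredoxin gene prdx-2, stood at 996, 996, 712 and 667 FPKM across NL 1 to 4 and at 752, 1344, 2209 and 1994 FPKM across DL 1 to 4 (log2 change 0.81 ± 0.34, limma adjusted p = 0.222). Thioredoxin reductase trxr-1 stood at 58.9 ± 10.7 FPKM in NL and 56.7 ± 4.9 FPKM in DL (SD, n = 4 each; limma adjusted p = 0.912). Of 5 glutaredoxin genes, limma called 0 (1 at an unadjusted p under 0.05, median 0.18), and glrx-10, the most abundant, had a log2 change of 0.26 ± 0.18 (limma adjusted p = 0.458).

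Superoxide dismutases, which make hydrogen peroxide from superoxide, held the 1 called gene of these lists: sod-3 fell by 2.27 on the log2 scale (SE 0.29, limma adjusted p = 0.0155). It was at 57 to 134 FPKM in NL and 14.6 to 28.9 FPKM in DL. Among the NL libraries NL 4 was lowest in sod-3, as in gpx-2, gpx-3, gpx-5, gpx-6 and gpx-8. Without NL 3 and DL 2 its log2 change was -2.15 (limma adjusted p = 0.00842). The call was lost without NL 1, NL 2, DL 3 or DL 4 (limma adjusted p = 0.0656, 0.0696, 0.0732 and 0.0763). A second dismutase gene, sod-5, named after its values were seen, stood at 1.48 to 16.9 FPKM in NL and 0.0715 to 0.699 FPKM in DL (log2 change -2.59 ± 0.53, limma adjusted p = 0.0645). Of the 5 dismutase genes, 2 had an unadjusted p under 0.05 (sod-3 and sod-5), and 2 had positive and 3 negative log2 changes, with a median of -0.08. For the dual oxidase, which makes hydrogen peroxide at the cuticle, its partners and cuticle peroxidases, limma called 0 of 5 tested genes (3 of the 5 at an unadjusted p under 0.05, median -0.51). The highest of them, the heme peroxidase gene mlt-7, had a log2 change of -0.69 ± 0.22 (limma adjusted p = 0.12). Of 9 genes for the synthesis of unsaturated fatty acids, whose hydroperoxides are substrates of GPX4-type enzymes, limma called 0 (1 at an unadjusted p under 0.05, median 0.09). The most abundant, the desaturase gene fat-6, had a log2 change of -0.24 ± 0.19 (limma adjusted p = 0.536).

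**Figure D5:**
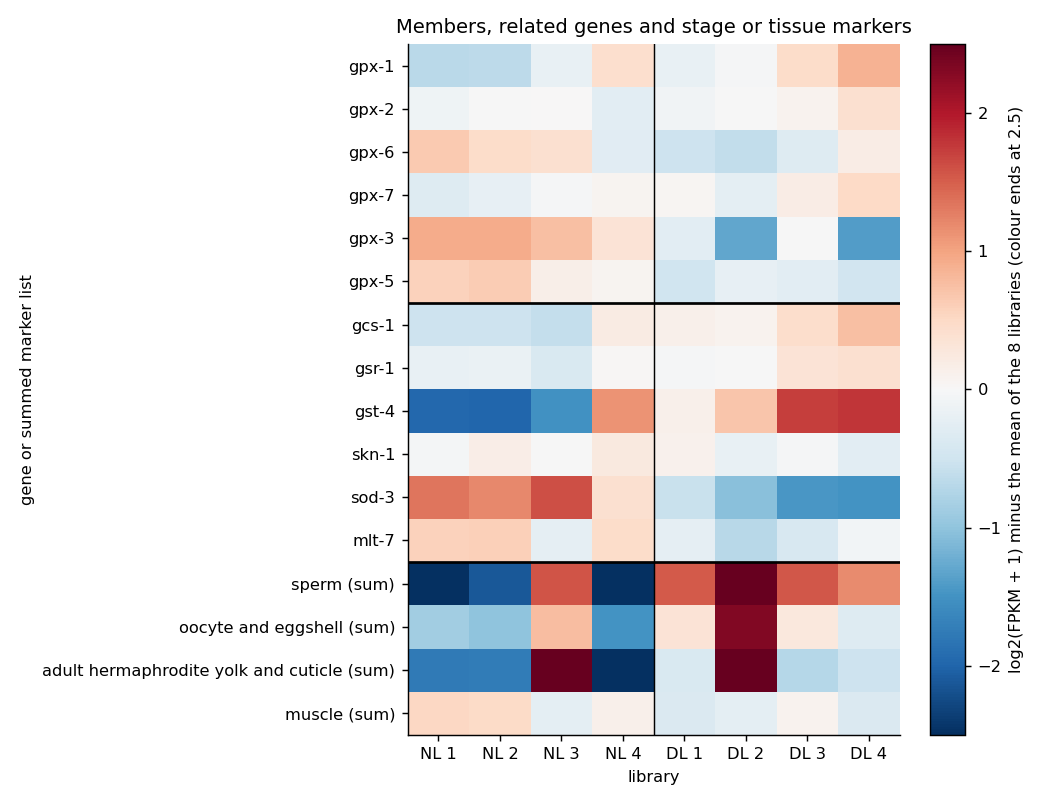
Heat map of log2(FPKM + 1), centred on each row's mean over the 8 libraries, for the 6 tested glutathione peroxidase genes, 6 related genes and 4 summed marker lists; red is above and blue below the row mean, and colours end at 2.5. The rows of gpx-3 and gpx-5 are highest in NL 1 and NL 2, and gpx-1 and gst-4 are highest in DL 4 and lowest in NL 1 or NL 2.

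For the 4 members that averaged 5 FPKM or more and spanned at least 1 on the log2 scale, the most similar genes were sought among 6145 others. Similarity was the root mean square difference of the 2 centred log2 profiles over the 8 libraries, and the groups and stages are shared by all of these genes. The closest to gpx-5 were dhs-2, a short-chain dehydrogenase gene (0.13), and scl-3 (0.14). To gpx-3 they were fipr-2 (0.31) and marg-1 (0.33), at a distance more than 2 times that for gpx-5. This distance grows with a gene's own spread, and gpx-3 spanned 2.32 on the log2 scale against 1.14 for gpx-5. The closest to gpx-1 were aqp-4, an aquaporin gene (0.12), and hrg-3, a gene of heme transport (0.15). Those to gpx-6 were zmp-3, a zinc metalloprotease gene (0.14), and ttr-17, of the transthyretin-related family (0.16). In aqp-4 as in gpx-1, NL 4 was the highest NL library, at 49.6 FPKM against 19.8 to 27.8 in the other NL libraries.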

How the data were processed

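RNA-seq of poly(A)-selected RNA was measured in 8 libraries, 4 per group. The authors deposited FPKM values per gene, 1 column for each library. Per the submitters' processing notes, the tools were HISAT2 and HTSeq and the build WBcel235. Their versions and the annotation are not stated, nor are the strand setting, the filters and the treatment of reads that match several genes, so similar gpx genes could share reads. The NEBNext Ultra kit does not mark strand, which is background knowledge.

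FPKM were tested as log2(FPKM + 1), which understates changes of low genes, with limma 3.58.1 in R 4.3.3 (empirical Bayes, intensity trend, two-sided). P-values were adjusted by Benjamini-Hochberg over genes averaging 1 FPKM or more, at a threshold of 0.05. Whole reads (22881 of 22985 genes, 99.55%, within 0.05 read) were recovered with exon lengths of Ensembl release 115. The total behind the FPKM values was 0.938 to 1.16 times these reads, a scaling the sources do not describe. Batch labels pair the libraries; the correlations of their deviations from the group means were -0.01, -0.19, -0.32 and 0.19, and 0.59 for NL 3 with DL 2. Replicates all differed by more than sampling noise, but unevenly. The chi-square per gene was 8.61 for NL 1 with NL 2 and 25.3 to 126 for the other pairs within a group. Whether NL 1 and NL 2 were separate cultures is not given in the labels, so they may not be independent replicates.

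The members, lists and alternatives were chosen with earlier results of these data known. All members were named, with those of the lists that were called or else the most abundant, trxr-1, gsr-1, gcs-1, skn-1 and 2 similar genes per varying member; drsh-1 and sod-5, and the alternatives for sod-3, were added after the values were seen. Of the marker lists, those of sperm and of yolk and cuticle and the counts of those of tissues are given in the results, and the sums of the latter and of oocyte genes at the close. The limma fit alone was tried on simulated data with independent noise for each gene, which lack the stage differences between these libraries. Alternatives covered pseudocount, filter, scaling, block, weights, voom and libraries left out. Sequences of the members were not used here. Python 3.11.15, pandas 2.3.3, numpy 2.4.6, scipy 1.17.1 and matplotlib 3.10.9 were used.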

Additional observations from a re-analysis of the deposited data

How the results depend on the processing

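All 114 log2 changes of the 6 tested members under alternatives kept their direction, and 106 also their side of the threshold. Part of this was fixed in advance, since the filters and the block leave the log2 change itself as it is. For gpx-3 and gpx-5, whose groups do not overlap, another pseudocount or a left-out library cannot reverse it. All 70 group levels under alternatives moved by less than 1 SD. For those with 1 library left out this was fixed in advance, as a mean of 4 libraries must move by less. The rest were levels rescaled to the same sum, for which it was not. With array weights (3.48 for NL 1 and 3.34 for NL 2, 0.323 for NL 3), 5 members were called, with log2 changes of 1.15 (gpx-1), -1.74 (gpx-3), -0.96 (gpx-5), -0.62 (gpx-6) and 0.53 (gpx-7), among 5189 genes. Without both NL 3 and DL 2, 1 member, gpx-5 (-0.85), and 1325 genes were called. Leaving out 1 library at a time gave 0 to 2 members, the 2 without NL 3, and log2 changes of -1.73 to -1.27 for gpx-3 and -0.82 to -0.63 for gpx-5, -0.82 to -0.51 for gpx-6, 0.35 to 0.78 for gpx-1, 0.08 to 0.24 for gpx-2 and 0.12 to 0.37 for gpx-7, the last 3 lowest without DL 4. Against 101 genes in all (42 higher, 59 lower), leaving out 1 library gave 10 (without NL 1) to 1558 (without NL 3), with 12, 220, 44, 19 and 15 without NL 2, NL 4, DL 1, DL 3 and DL 4. No filter on low values gave 33 genes and the replicate block of batch pairs 25, with no member called and no member's call changed by the block. Quantile normalization gave 216 (67 higher, 149 lower), rescaling to the same sum 40 higher and 31 lower, centring on the median gene 44 and 106, and voom 41 and 32. The added alternatives for sod-3 kept its direction in 19 of 19 and its call in 15. The cause of these shifts was not tested. Depth limits gpx-8 most, at 0 to 12 reads per library. Counting error also enters the values of gpx-6 (64 to 164 reads) and gpx-3 (73 to 429 reads).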

Other observations

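The gene gpx-4, outside the 7 by the rule of choice, had 4 to 22 reads per library and stood at 0.191 to 1.02 FPKM in NL and 0.381 to 1.10 FPKM in DL, under the filter of 1 FPKM. Of the 14 sets of 4 libraries (7 genes in each group), 0 held a library set apart from the other 3 by Dixon's test.

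Whole-animal RNA held the defining transcripts of the main tissues in all libraries, with different sums. The summed FPKM of 5 muscle genes was 1845 and 2397 in NL 3 and NL 4 and 1705 to 2324 in DL, so NL 3 lay in the DL range. That of 5 hypodermis genes ran from 1827 to 2837 in NL and from 1067 to 2412 in DL, that of 5 neuronal genes 328 to 412 and 267 to 374, and that of 4 matched intestine genes 6601 to 7590 and 4341 to 7925. For 10 oocyte and eggshell genes the sum ran from 24.8 to 123 in NL, with NL 3 highest, and from 56.9 to 357 in DL, with DL 2 highest. The part of these sums in the levels of the gpx genes was not tested.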
